A study of Erigeron canadensis with 32 samples.

Results

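In leaves of horseweed (*Erigeron canadensis*), the genes annotated to the ABA pathway downstream of NCED did not move as one block after auxin herbicides. By 6 h after treatment (HAT), the gene with an ABA3 best hit was higher after 2,4-D and dicamba. Among the 4 genes with an ABA2 best hit, HW_5686_g was higher and HW_7772_g lower after 2,4-D. HW_26707_g was lower after all 3 herbicides, though its dicamba and halauxifen-methyl results depended on single libraries. HW_7772_g was also lower after dicamba at 1 HAT, while at 6 HAT a single dicamba plant decided its result. Of the rows with a CYP707A4 best hit, an ABA breakdown enzyme, HW_29043_g was lower after halauxifen-methyl. Another such row with more counts, HW_29806_g, did not pass the threshold against water at either time. Its dicamba libraries at 1 HAT nevertheless all lay above the water libraries. The genes described are 6 rows of the 54498 in the count table, taken by their identifiers. They are HW_29530_g (ABA3), HW_5686_g, HW_26707_g, HW_7772_g and HW_23442_g (all ABA2) and HW_29043_g (CYP707A4). The names are the best *Arabidopsis thaliana* hits in the deposited annotation, and the activity of the horseweed proteins was not measured.

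Rosettes of a glyphosate-resistant biotype were grown in a greenhouse and sprayed with 2,4-D dimethylamine salt, dicamba diglycolamine salt, halauxifen-methyl or water, and every spray, water included, carried a non-ionic surfactant. A single leaf was taken at 1 or 6 HAT for RNA-seq, with 4 plants in each of the 8 groups and 1 library for each of the 32 plants. Each herbicide was applied at its own labeled field rate, and the rates differed, so a difference between herbicides is a difference between treatments and not between molecules at 1 dose. Libraries held 12588842 to 29111958 counts (median 18168133.5). Water replicate 1 of 6 HAT stood apart from the other 3 of its group, with an r of log2 CPM across genes of 0.929 to 0.931 to them, against 0.978 to 0.982 among them. It is a control of every comparison with water at 6 HAT. Levels are given in CPM, the usual scaling of a gene's counts to the total of its library, with library sizes adjusted by the TMM method over all 32 libraries.

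ABA is made from plastid carotenoids. NCED enzymes cleave epoxycarotenoids to xanthoxin, the step usually regarded as limiting in leaves. In *Arabidopsis*, the short-chain dehydrogenase ABA2 then converts xanthoxin to abscisic aldehyde, and the aldehyde oxidase AAO3 converts this to ABA. AAO3 works only with a sulfurated molybdenum cofactor, which ABA3 supplies. The CYP707A cytochromes P450 hydroxylate ABA and so start its breakdown, and the hormone is best known for closing stomata.

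The gene models differed in shape, as the plot of exons shows. HW_29530_g, on the minus strand of its contig from base 2487 to 14612, had 27 exons and a predicted protein of 1170 residues. HW_7772_g (minus strand, 6603 to 7524) had a short exon of 38 bases and a long one of 784, for 273 residues. The other ABA2 rows were not of this form. HW_5686_g (minus strand, 14646 to 18135) held long exons of 774 and 790 bases on either side of a short one and was annotated without a start codon. HW_23442_g (plus strand, 2603 to 6944) held long exons of 781 and 793 bases among 5. Their predicted proteins had 590 and 597 residues, so each of these models carries a pair of exons of about the size that HW_7772_g carries once. Whether either of them joins neighbouring genes was not tested. HW_26707_g (minus strand, 3743 to 4917) was the shortest, with 4 exons and 232 residues. Its best hit in the NCBI protein set was a borneol dehydrogenase of *Artemisia annua*, while the other ABA2 rows matched a glucose/ribitol dehydrogenase of artichoke. HW_29043_g (minus strand, 12922 to 15406) had 9 exons, 495 residues, no annotated start codon and a lettuce ABA oxidase as its NCBI hit. None of the 6 models overlapped another gene, and all list coding exons only.

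**Figure D1:**
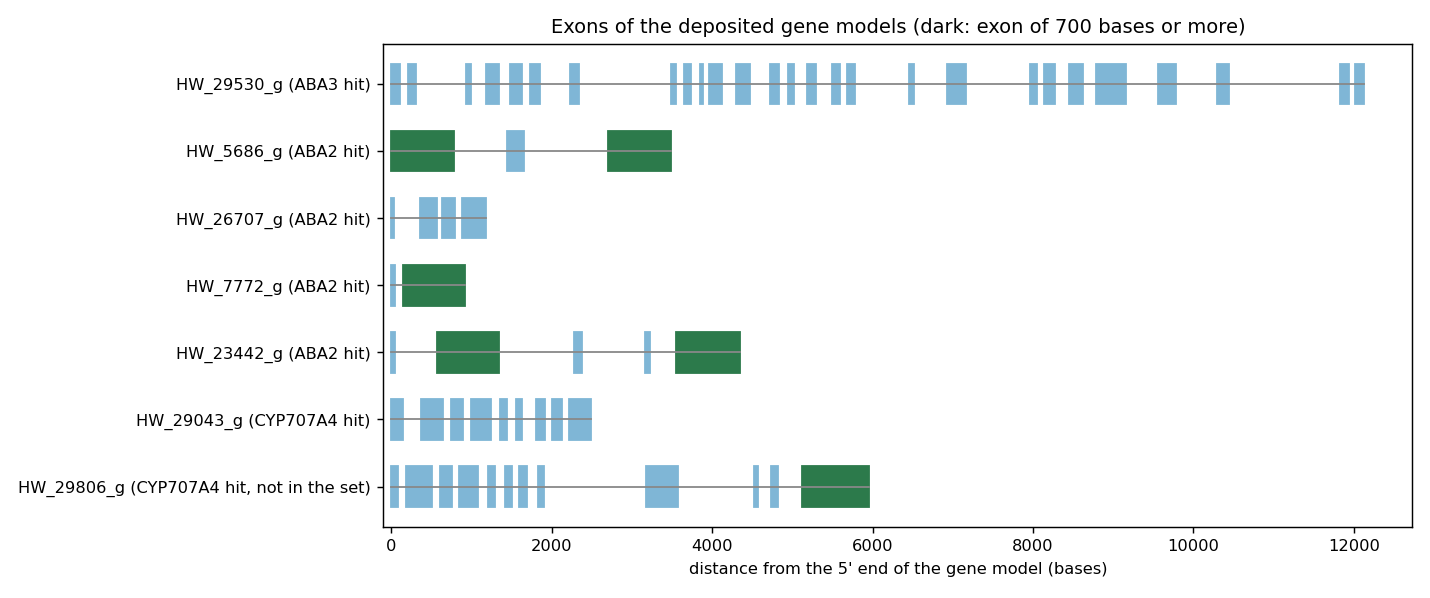
Exons of the 6 genes and of HW_29806_g, another row with a CYP707A4 hit, drawn to scale by distance in bases from the 5′ end of each deposited gene model; boxes are exons, lines introns, and dark boxes exons of 700 bases or more. HW_5686_g and HW_23442_g have 2 such exons each, and HW_7772_g and HW_29806_g have 1 each.

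All 6 genes passed the low-count filter in each of the 16 comparisons made. Over the 32 libraries, HW_29530_g collected 54317 counts, HW_7772_g 32014, HW_5686_g 28053, HW_23442_g 6796, HW_26707_g 6454 and HW_29043_g 2651. Per kb of coding length, the only scale on which genes can be set beside each other, HW_7772_g was the highest in water at 6 HAT with 127 ± 20.3 CPM per kb (SD, n = 4). HW_26707_g followed with 29.7 ± 10.3, HW_29530_g with 17.9 ± 1.63 and HW_5686_g with 15.2 ± 3.84. The level of HW_29043_g was 5.88 ± 1.08 CPM per kb and that of HW_23442_g 3.99 ± 1.80. Between its highest and lowest group mean, the level of HW_29530_g spanned a ratio of 2.14, HW_5686_g 2.61, HW_29043_g 3.73, HW_26707_g 3.80, HW_7772_g 5.18 and HW_23442_g 5.37.

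Herbicide and water plants of the same time point were compared to ask whether steps of ABA metabolism other than NCED responded. Calls are genes with an adjusted p of 0.05 or less in edgeR's quasi-likelihood test, adjusted by the Benjamini-Hochberg method over all genes tested. At 1 HAT, 0 of the 6 genes were called after 2,4-D (1.82% of all tested genes were called), 1 lower after dicamba (2.42%, of which 1.19% lower) and 0 after halauxifen-methyl (0.176%). At an unadjusted p under 0.05 the counts were 2, 2 and 1, and DESeq2's Wald test called 1, 1 and 0. Over all genes, an unadjusted p under 0.05 was found for 1684 of 14261, 2139 of 14184 and 511 of 14207. DESeq2's Wald test called 656, 860 and 81 of all genes. At 6 HAT, 4 were called after 2,4-D, 2 higher and 2 lower, where 19.7% of all genes were called, 10.3% higher and 9.41% lower. After dicamba 1 was higher and 1 lower (9.6% of all genes, 5.64% higher and 3.96% lower). After halauxifen-methyl 2 were lower (14.7%, of which 6.13% lower). The CPM ranges of herbicide and water libraries did not overlap at 6 HAT for 5 of the 6 genes after 2,4-D (26.4% of all genes), 2 after dicamba (17.8%) and 2 after halauxifen-methyl (23.5%). The median log2 fold change of the 6 genes at 6 HAT was -0.89 for 2,4-D, -0.72 for dicamba and -0.32 for halauxifen-methyl, against 0.02, 0.06 and 0.05 over all genes tested. The 3 comparisons at a time point share their water libraries. Without water replicate 1 at 6 HAT none of these 8 calls was lost and HW_29530_g was added after halauxifen-methyl, which gives 4, 2 and 3 calls.

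The leaf identity and cell makeup of the samples bear on how these counts are read. Of the 5 mesophyll marker hits, RBCS1B, RCA and CAB2 were high in all libraries, LHB1B1 ran from 1.14 to 372 CPM and RBCS1A was at 0. The hits of the root markers summed to 7.82 CPM or less in every library. The summed mesophyll markers ran from 72654 to 105370 CPM in water at 1 HAT and from 43281 to 77241 CPM in water at 6 HAT. In the herbicide groups of 6 HAT they ran from 24343 to 36076 (2,4-D), 19861 to 26529 (dicamba) and 11711 to 29204 (halauxifen-methyl). These markers are photosynthesis genes. The study listed rows hitting RBCS1B, CAB2 and LHB1B1 among those with lower expression after all the herbicides at 6 HAT. The 5 guard cell marker hits summed to 9.66 to 17.0 CPM in water at 6 HAT and to 58.7 to 130.2 over the herbicide libraries. KAT1 carried most of that sum, while FAMA and MYB60 stayed at or near 0. Over all libraries SLAC1 reached 7.81 CPM at most and TMM 22.2. The 5 vascular marker hits summed to 486 to 960 CPM in water and to 154 to 639 over the herbicide libraries at 6 HAT. SWEET12 carried most of the vascular sum, XCP2 was at 0 and APL at or near 0. Over all libraries SUC2 reached 2.00 CPM at most and SWEET11 11.3. The epidermis marker hits summed to 71.1 to 96.9 CPM in water at 6 HAT and to 68.2 to 94.4 over the herbicide libraries. The part of these shifts in the results that follow was not tested. In a bulk leaf sample, fewer cells of a type and less RNA per cell cannot be told apart.

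**Figure D2:**
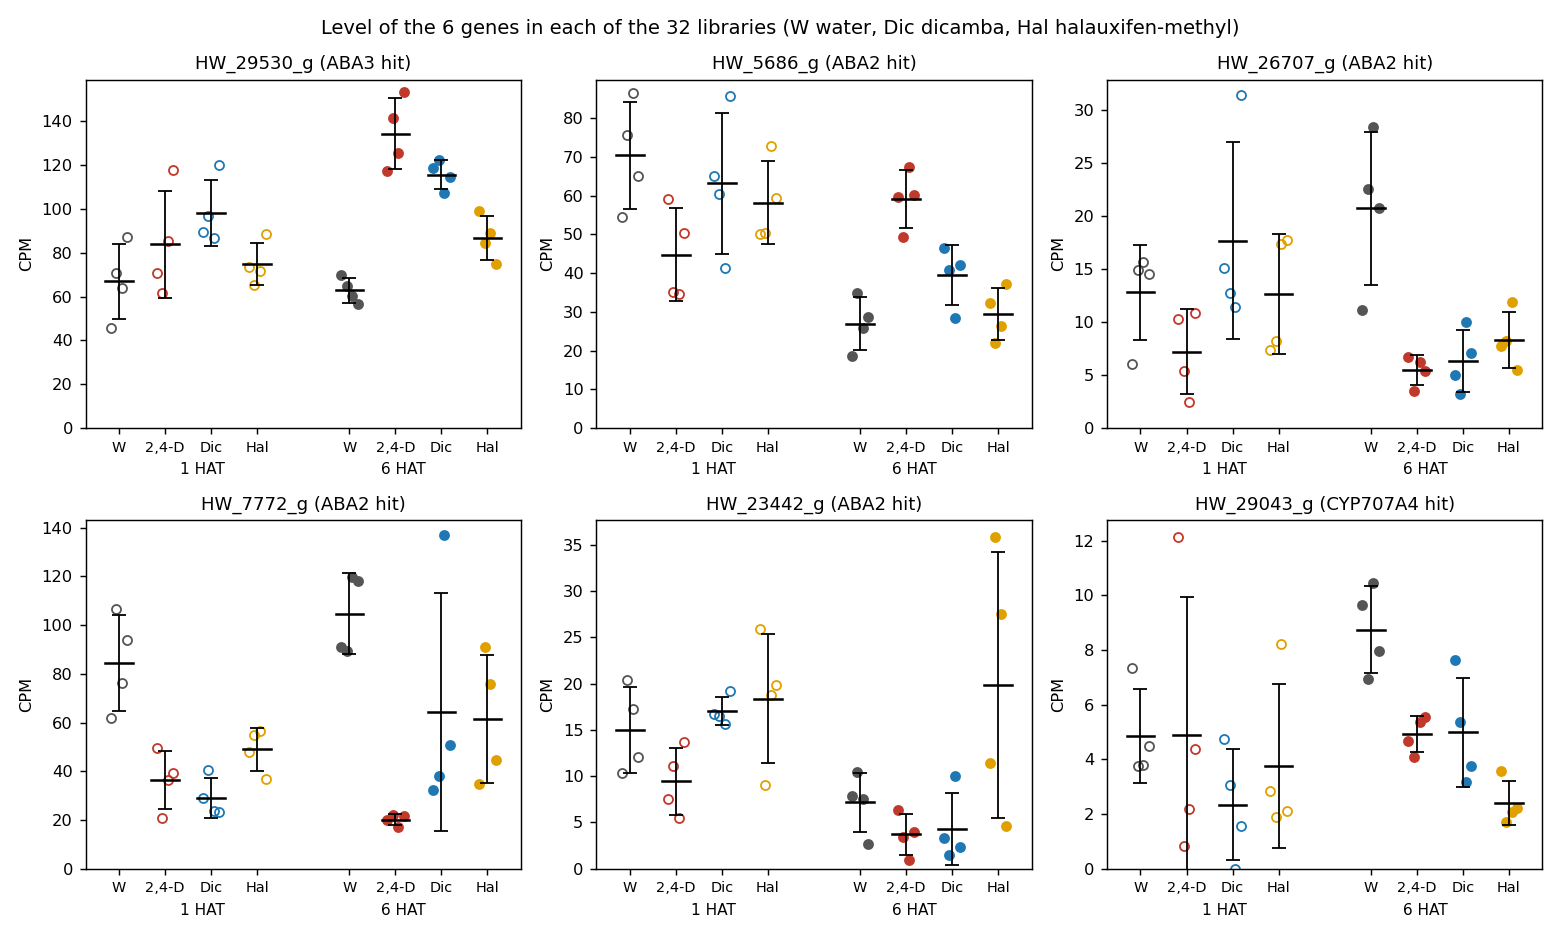
CPM of each of the 6 genes in the 32 libraries, by treatment and time; open circles are 1 HAT, filled circles 6 HAT, thick lines group means and bars 1 SD (n = 4 plants). At 6 HAT the HW_29530_g level of every 2,4-D and dicamba library lay above every water library, and the HW_7772_g level of every 2,4-D library lay below every water library.

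HW_7772_g, the ABA2 row with the highest level in water, fell the most of the 6 genes. In water at 6 HAT its level was 91.1, 89.4, 119.9 and 118 CPM in the 4 libraries. After 2,4-D it was 20.02, 21.9, 17.1 and 21.8 CPM. All 2,4-D libraries lay far below all water libraries, and they differed little among themselves. The gene fell by 2.36 on the log2 scale (SE 0.15, 95% interval -2.70 to -2.03, adjusted p 1.7e-06 by edgeR's quasi-likelihood test), which is 5.15-fold lower. An exact permutation test on CPM gave p = 0.0286 (two-sided), the smallest that 4 against 4 libraries allow.

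After dicamba at 6 HAT the HW_7772_g level was 32.3, 37.9, 137 and 50.6 CPM. Library 3 stood above every water library and the other 3 below every water library. The log2 fold change was -0.70 (SE 0.39, adjusted p 0.369), and without dicamba replicate 3 it was -1.35 (adjusted p 0.00149), so that this 1 plant decides the call. After halauxifen-methyl the level was 34.8, 91.1, 75.8 and 44.7 CPM, and the highest of these overlapped the water range. Its log2 fold change was -0.78 (SE 0.28, adjusted p 0.0967), and -1.01 (adjusted p 0.0389) without halauxifen-methyl replicate 2.

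HW_7772_g was also the only one of the 6 genes called at 1 HAT. Water libraries then held 61.8, 107, 76.1 and 93.9 CPM. After dicamba they held 28.8, 40.7, 23.8 and 23.2 CPM, all below the water range. The log2 fold change was -1.54 (SE 0.24, adjusted p 0.00546), 2.91-fold lower. After 2,4-D the level was 49.7, 20.6, 36.3 and 39.2 CPM, again below every water library. That difference of -1.19 (SE 0.27) missed the threshold by edgeR's quasi-likelihood test with an adjusted p of 0.0587, and passed it under 5 of the 8 other settings tried. After halauxifen-methyl, at 47.8, 54.9, 56.5 and 37.0 CPM, the groups did not overlap either and the log2 fold change was -0.77 (SE 0.22, adjusted p 0.741). Non-overlap was not rare at 1 HAT: it held for 8.57% of all tested genes with 2,4-D, 10.5% with dicamba and 3.28% with halauxifen-methyl.

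HW_5686_g, another row with an ABA2 best hit, went the other way at 6 HAT. Water libraries held 18.5, 34.9, 25.9 and 28.6 CPM. After 2,4-D they held 59.7, 49.2, 67.3 and 60.1 CPM, all above the water range. The gene rose 2.21-fold (log2 1.14, SE 0.19, adjusted p 0.00102). The dicamba libraries (46.4, 40.9, 28.3 and 42.2 CPM) overlapped the water range at 28.3 CPM and lay below all 2,4-D libraries, with a log2 fold change of 0.57 (SE 0.24, adjusted p 0.198). The halauxifen-methyl libraries (32.3, 21.97, 26.4 and 37.3 CPM) overlapped the water range, with 0.13 (SE 0.24, adjusted p 0.806).

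The HW_5686_g level also differed between the time points in plants sprayed with water. At 1 HAT the water libraries held 54.5, 75.6, 86.5 and 65.1 CPM, all above those of 6 HAT (22% of all genes had ranges without overlap there). Between 1 and 6 HAT the level in water fell by 1.42 on the log2 scale (SE 0.22, adjusted p 0.00136), and HW_5686_g was the only one of the 6 genes called in that comparison (13.9% of all genes were). Its mean after 2,4-D was 44.7 ± 12.1 CPM at 1 HAT and 59.1 ± 7.44 at 6 HAT (SD, n = 4), against 70.4 ± 13.8 and 27.0 ± 6.80 in water. The higher level after 2,4-D at 6 HAT therefore overlapped the range that water plants showed at 1 HAT. The herbicide effect differed between the times by 1.79 (SE 0.30, adjusted p 0.00077) in the 2,4-D by time interaction, being -0.63 (adjusted p 0.267) at 1 HAT.

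HW_26707_g, the ABA2 row that resembles a borneol dehydrogenase, was lower after every herbicide at 6 HAT. Water libraries held 11.1, 22.6, 28.4 and 20.8 CPM. After 2,4-D they held 6.71, 3.46, 6.26 and 5.40 CPM, all below the water range. The gene was 3.78-fold lower (log2 -1.92, SE 0.32, adjusted p 0.0013). After dicamba, at 4.97, 3.18, 10.05 and 7.12 CPM, the groups did not overlap and the log2 fold change was -1.70 (SE 0.40, adjusted p 0.0209). After halauxifen-methyl, at 7.73, 8.24, 11.9 and 5.44 CPM, 1 library reached into the water range and the log2 fold change was -1.33 (SE 0.33, adjusted p 0.0223).

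The calls for HW_26707_g after dicamba and halauxifen-methyl each depended on several single libraries. The dicamba call was lost without dicamba replicate 1 or 4 or without water replicate 2, 3 or 4, with adjusted p from 0.054 to 0.0869. The halauxifen-methyl call was lost without halauxifen-methyl replicate 1 or 2 or without water replicate 2, 3 or 4, with adjusted p from 0.057 to 0.0806. The 2,4-D call held without any 1 library. At 1 HAT the water libraries of HW_26707_g held 6.07, 14.9, 15.7 and 14.6 CPM and the ranges of all herbicides overlapped them, from 2.41 to 10.8 CPM after 2,4-D, 11.5 to 31.4 after dicamba and 7.35 to 17.7 after halauxifen-methyl. The dicamba effect differed between the times by -2.17 (SE 0.60, adjusted p 0.0406), a call that 12 of the 16 libraries could end when left out.

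HW_23442_g was not called against water at either time. At 6 HAT its level was 7.88, 10.4, 7.58 and 2.71 CPM in water and 11.4, 35.8, 27.5 and 4.595 CPM after halauxifen-methyl. The halauxifen-methyl plants were thus spread from near the lowest to well above the highest water plant. The log2 fold change was 1.44 (SE 0.60, 95% interval 0.12 to 2.77, adjusted p 0.148), and 1.77 (adjusted p 0.0385) without halauxifen-methyl replicate 4. After 2,4-D the level was 6.37, 3.46, 0.941 and 4.01 CPM and after dicamba 3.29, 1.501, 9.99 and 2.33 CPM. Both overlapped water, with log2 fold changes of -0.96 (SE 0.59, adjusted p 0.326) and -0.75 (SE 0.66, adjusted p 0.626).

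Because the ABA2 rows moved in different directions, their shares of the common level changed. The shares were computed after the values had been seen and were not tested. In water at 6 HAT, HW_7772_g made up 65.3 to 78.3% of the CPM per kb summed over the 4 rows and HW_5686_g 7.11 to 11.8%. After 2,4-D at 6 HAT, HW_7772_g made up 30.4 to 43.5% and HW_5686_g 45.3 to 55.7%, so HW_5686_g had become the row with the highest share in all 4 libraries. HW_7772_g kept the highest share in all dicamba libraries, with 52.8 to 82.3%, and in all halauxifen-methyl libraries, with 54.3 to 71.5%. The summed level of the 4 rows was 142 to 205 CPM per kb in the water group. It was 61.3 to 71.2 in the 2,4-D group, 74.5 to 202 with dicamba and 77.9 to 155 with halauxifen-methyl. These per kb values rest on the deposited model lengths, and how reads shared by similar rows were counted is not stated in the sources used here.

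HW_29530_g is the only row of the table with ABA3 as its best hit. At 6 HAT it held 69.7, 65.0, 60.3 and 56.5 CPM in water. After 2,4-D it held 117, 141, 126 and 154 CPM, and after dicamba 118, 122, 107 and 115 CPM. Every library of these herbicides lay above every water library. The gene rose 2.15-fold after 2,4-D (log2 1.10, SE 0.14, adjusted p 0.000146) and 1.86-fold after dicamba (0.89, SE 0.16, adjusted p 0.0037), and neither call was lost without any 1 library. The halauxifen-methyl libraries, at 99.0, 84.6, 89.1 and 74.7 CPM, also lay above all water libraries. Their log2 fold change of 0.46 (SE 0.15, 95% interval 0.13 to 0.79) had an adjusted p of 0.066, and it fell to 0.0443 without halauxifen-methyl replicate 4 and to 0.0408 without water replicate 1.

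At 1 HAT the HW_29530_g level in water was 45.5, 70.9, 63.9 and 87.2 CPM. The herbicide libraries overlapped this range, with 61.6 to 118 CPM after 2,4-D, 86.8 to 119.9 after dicamba and 65.4 to 88.4 after halauxifen-methyl. The log2 fold changes were 0.35 (SE 0.25, adjusted p 0.685), 0.56 (SE 0.22, adjusted p 0.251) and 0.18 (SE 0.21, adjusted p 1). The level in water hardly differed between the times (log2 -0.11, SE 0.20, adjusted p 0.804). The 2,4-D effect at 6 HAT exceeded that at 1 HAT by 0.77 (SE 0.30), which missed the threshold with an adjusted p of 0.125 and passed it without 2,4-D replicate 4 or water replicate 1 of 1 HAT.

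HW_29043_g, 1 of 4 rows with a CYP707A4 best hit, was the lowest of the 6 genes in counts, with 0 to 200 per library. At 6 HAT its level was 9.66, 6.93, 10.5 and 7.95 CPM in water and 3.56, 1.72, 2.07 and 2.22 CPM after halauxifen-methyl. Every halauxifen-methyl library lay below every water library. The gene was 3.66-fold lower (log2 -1.87, SE 0.40, adjusted p 0.0113), and the call held without any 1 library. With all 32 libraries in 1 fit, which share 1 estimate of the spread, it was lost (adjusted p 0.107). After 2,4-D the level was 4.66, 4.10, 5.37 and 5.56 CPM, also below every water library, with a log2 fold change of -0.83 (SE 0.31, adjusted p 0.0978). The dicamba libraries (7.65, 5.37, 3.18 and 3.75 CPM) overlapped water, with -0.80 (SE 0.43, adjusted p 0.351).

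At 1 HAT the HW_29043_g values were scattered. Water libraries held 7.36, 3.76, 3.80 and 4.50 CPM and 2,4-D libraries 12.1, 0.841, 2.18 and 4.37 CPM. In the dicamba group the values were 4.74, 3.07, 0 and 1.57 CPM, and the 0 allows up to 0.155 CPM at 3 counts in that library. Halauxifen-methyl libraries held 2.83, 1.87, 8.22 and 2.10 CPM. The intervals of the log2 fold changes were wide, from -1.53 to 1.55 after 2,4-D, -3.23 to 1.12 after dicamba and -1.60 to 0.90 after halauxifen-methyl, and a change of the size seen at 6 HAT after halauxifen-methyl was not detectable for dicamba at this depth and spread.

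Another row with a CYP707A4 best hit, HW_29806_g, is not among the 6 genes but shares a run of 5 exon lengths with HW_29043_g (150, 249, 90, 79 and 107 bases, 675 in all). The HW_29806_g model had 12 exons, 1 of them of 829 bases, and a predicted protein of 844 residues against 495 for HW_29043_g. Whether this model joins neighbouring genes was not tested. HW_29806_g collected 18413 counts and was not called against water at either time. At 1 HAT its dicamba libraries (32.3 to 44.8 CPM) all lay above its water libraries (19.4 to 30.1 CPM). Such non-overlap held for 10.5% of all tested genes there. The 2,4-D and halauxifen-methyl libraries of 1 HAT overlapped water. At 6 HAT its log2 fold change was 0.16 (SE 0.14) after 2,4-D, 0.24 (SE 0.21) after dicamba and 0.05 (SE 0.18) after halauxifen-methyl, with adjusted p from 0.504 to 0.912. The remaining CYP707A4 rows, 2 in number, had no counts in any library. Outside the 6 genes, 15 rows of the list belonged to breakdown and conjugation. After halauxifen-methyl at 6 HAT 4 of these were tested and 0 were called, with a median log2 fold change of 0.65.

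**Figure D3:**
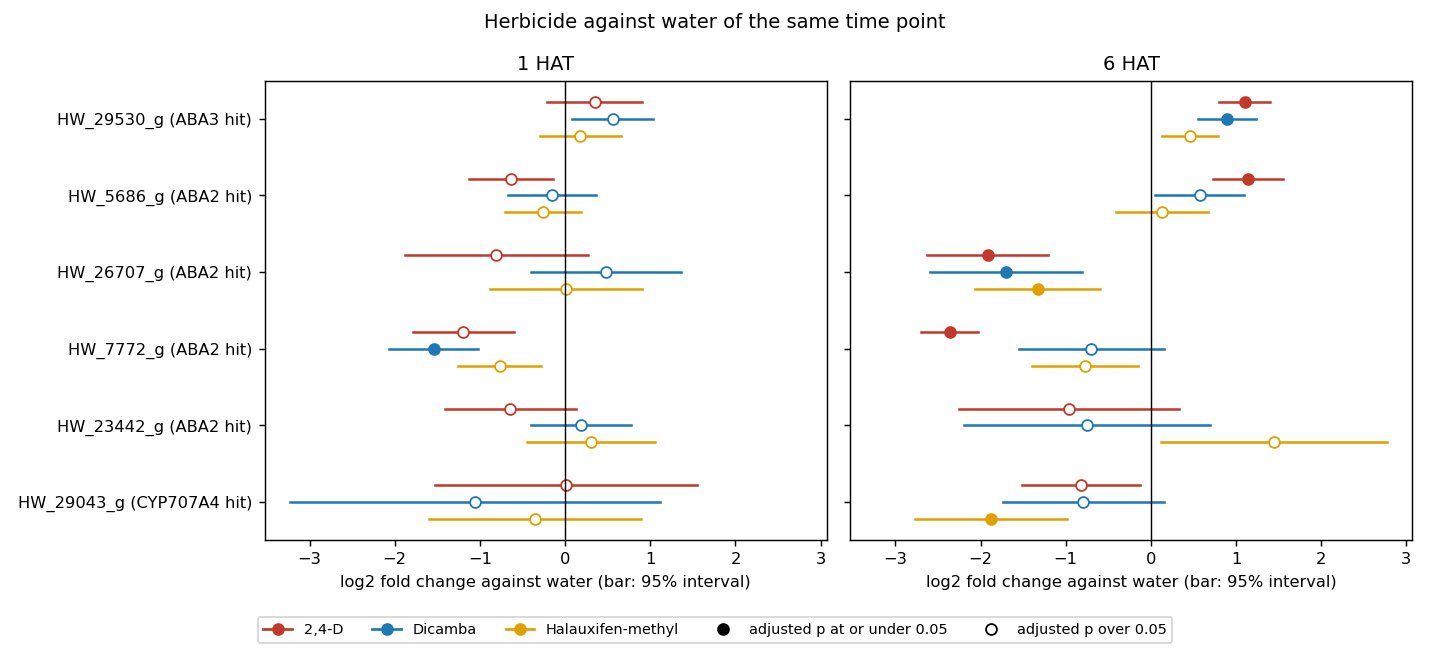
Log2 fold change of the 6 genes against water of the same time, by edgeR's quasi-likelihood test; points are estimates, bars 95% intervals (4 against 4 libraries), and filled points have an adjusted p of 0.05 or less. At 6 HAT the 2,4-D points of HW_29530_g and HW_5686_g lie above 0 and those of HW_26707_g and HW_7772_g below it.

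The herbicides were then compared with one another at the same time, in 6 pairs with p adjusted over all genes in each. At 1 HAT 0 of the 6 genes were called in any pair, where 0.208% of all genes were called for 2,4-D against dicamba, 0.475% for 2,4-D against halauxifen-methyl and 0.355% for the remaining pair. Unadjusted p values under 0.05 numbered 2, 1 and 1, and DESeq2's Wald test called 0 in each. Over all genes such p values numbered 2323 of 14398, 1184 of 14535 and 934 of 14365, and DESeq2 called 781, 275 and 174. At 6 HAT 4 of the 6 were called between 2,4-D and halauxifen-methyl (8.04% of all genes). None was called between 2,4-D and dicamba (0 of 6, 0.519% of all genes, with 2 at an unadjusted p under 0.05 and 1 called by DESeq2). The count was also 0 between dicamba and halauxifen-methyl (0.489%, with 3 at an unadjusted p under 0.05 and 1 called by DESeq2). Over all genes, an unadjusted p under 0.05 was found for 1210 of 14462 in the former pair and 1374 of 14719 in the latter. DESeq2 called 262 and 375 of all genes there.

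Between 2,4-D and halauxifen-methyl at 6 HAT, HW_29530_g was higher after 2,4-D by 0.63 on the log2 scale (SE 0.13, adjusted p 0.0174) and HW_5686_g by 0.99 (SE 0.19, adjusted p 0.00979). HW_7772_g was lower after 2,4-D (-1.60, SE 0.27, adjusted p 0.00521), and so was HW_23442_g (-2.41, SE 0.65, adjusted p 0.0487). The call for HW_29530_g was lost without 2,4-D replicate 2 or 4, and that for HW_23442_g without any 1 of 7 of the 8 libraries, so the count of 4 fell to as low as 2. For HW_29043_g the difference was 1.03 (SE 0.33, 95% interval 0.29 to 1.77, adjusted p 0.097) and for HW_26707_g -0.61 (95% interval -1.27 to 0.06, adjusted p 0.295). Between 2,4-D and dicamba the intervals were 0.17 to 0.96 for HW_5686_g and -2.56 to -0.81 for HW_7772_g, whose adjusted p was 0.147 and fell to 0.0245 without dicamba replicate 3. HW_29530_g differed between them by 0.20 (95% interval -0.11 to 0.51, adjusted p 0.794).

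Of the 6 genes, 2 were called in the 2,4-D by time interaction (9.5% of all genes) and 1 in that of dicamba (5.17%). In that of halauxifen-methyl 0 were called (5.49% of all genes). There, 2 of the 6 had an unadjusted p under 0.05 (2648 of 15860 over all genes). DESeq2 called 0 of the 6 there and 1402 over all genes. Beside HW_5686_g, the 2,4-D call was HW_7772_g, whose fall was deeper at 6 than at 1 HAT by 1.16 on the log2 scale (log2 -1.16, SE 0.32, adjusted p 0.0286). This call was lost without any 1 of 8 of the 16 libraries and with all 32 libraries in 1 fit (adjusted p 0.162).

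The order of the 8 group means differed from gene to gene. For HW_29530_g it ran from 134 ± 16.2 CPM after 2,4-D at 6 HAT, through 116 ± 6.44 after dicamba at 6 HAT, down to 62.9 ± 5.72 in water at 6 HAT. HW_7772_g ran from 105 ± 16.7 CPM in water at 6 HAT to 20.2 ± 2.26 after 2,4-D at 6 HAT. HW_26707_g had the same ends, with 20.7 ± 7.202 and 5.46 ± 1.44 CPM. HW_5686_g was highest in water at 1 HAT and lowest in water at 6 HAT. HW_23442_g was highest after halauxifen-methyl at 6 HAT, with 19.8 ± 14.4 CPM, and lowest after 2,4-D at 6 HAT, with 3.69 ± 2.23. HW_29043_g was highest in water at 6 HAT, with 8.75 ± 1.60 CPM. Groups next to each other in these orders overlapped in range for every gene, except dicamba at 1 HAT and 2,4-D at 6 HAT for HW_7772_g.

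The levels of the 6 genes were not closely tied to each other. Over the 32 libraries, Pearson's r of log2 CPM between 2 of them ran from -0.57 (HW_29530_g and HW_7772_g) to 0.50 (HW_26707_g and HW_23442_g), a description over libraries that share treatments and times. HW_5686_g and HW_7772_g had an r of -0.40. The rows most like HW_29530_g were HW_19455_g (ETFQO, a mitochondrial electron-transfer oxidoreductase, r 0.89), HW_8113_g (a haloacid dehalogenase-like hydrolase, 0.89) and HW_38488_g (UGE3, a UDP-glucose epimerase, 0.88). The nearest to HW_7772_g was HW_10580_g (SETH3, a sugar isomerase, 0.83), followed by HW_781_g (0.81) and HW_51197_g (LPR1, 0.79). The nearest to HW_26707_g were HW_12371_g (0.85), HW_53538_g (0.84) and HW_2182_g (PIP2B, an aquaporin, 0.82). HW_5686_g came closest to HW_49091_g (a beta-glucosidase of the GBA2 type, 0.80), HW_21353_g (0.77) and HW_10518_g (BGLU40, 0.76). HW_23442_g came closest to HW_47101_g (0.80), HW_31603_g, which has no hit (0.76), and HW_49340_g (SOT16, 0.76), and HW_29043_g to HW_4450_g, HW_5062_g (0.75 each) and HW_2192_g (MYB106, 0.73).

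The rest of the pathway was taken from a list of 24 *Arabidopsis* genes of ABA synthesis, breakdown, conjugation and transport, which were the best hits of 58 rows. Of these, 52 are not among the 6 genes and 17 had 0 counts throughout. Beside the 4 ABA2 rows described, 3 more had this hit, of which HW_34234_g collected 197 counts, HW_49874_g 116 and HW_15359_g none. At 6 HAT 18 of the 52 rows were tested after 2,4-D, 2 of them higher and 4 lower (10.3% and 9.41% of all genes). After dicamba 1 of 19 was higher and 3 lower (5.64% and 3.96% of all genes). After halauxifen-methyl 1 of 19 was higher and 2 lower (8.55% and 6.13% of all genes). At 1 HAT 20 were tested in each comparison, with 1 higher after 2,4-D (0.898% of all genes were), 2 higher and 1 lower after dicamba (1.23% and 1.19%) and none called after halauxifen-methyl (0 of 20).

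A row of the step before ABA2 gave the largest of these values. NCED5 HW_34273_g, a carotenoid cleavage enzyme, held 3 to 12 counts in water at 1 HAT and 246 to 502 after 2,4-D. It rose by a log2 fold change of 5.18 (SE 0.39, adjusted p 8.95e-05) after 2,4-D and 4.98 (SE 0.43, adjusted p 9.45e-05) after dicamba at 1 HAT, when only HW_7772_g among the 6 genes was called. After halauxifen-methyl it held 52 to 391 counts at 1 HAT, with a log2 fold change of 3.95 (SE 0.69, adjusted p 0.0798). At 6 HAT the 4 water libraries held 0 to 19 counts, those of 2,4-D 151 to 398, those of dicamba 70 to 203 and those of halauxifen-methyl 60 to 150, so no herbicide range overlapped water at either time. The log2 fold change at 6 HAT was 4.25 (SE 0.76, adjusted p 0.00196) after 2,4-D. It was 3.28 (SE 0.94, adjusted p 0.0521) after dicamba and 2.83 (SE 0.91, adjusted p 0.0654) after halauxifen-methyl, both short of the threshold. The study, with other tests on the same libraries, reported HW_34273_g as significantly higher after every herbicide at both times. It also reported a rise in each case by qRT-PCR on separately sprayed plants. HW_373_g, a row with an NCED3 best hit and 10123 counts, was not called against water at either time. At 6 HAT its mean was 24.1 ± 16.9 CPM in water and 35.1 ± 14.8 after 2,4-D (SD). After dicamba it was 26.7 ± 18.6 and after halauxifen-methyl 17.0 ± 3.48. Per kb, the HW_373_g mean was higher than that of HW_34273_g in every group of that time. The tested aldehyde oxidases, which act after ABA2, were not called. Rows with an AAO1 best hit had 0 and 5 counts, too few to test. The aldehyde oxidase row AAO3 HW_48835_g held 26.1 ± 6.32 CPM in water and 31.3 ± 2.43 after 2,4-D at 6 HAT (log2 0.26, SE 0.20, adjusted p 0.443). AAO2 HW_6997_g, a related aldehyde oxidase, had a log2 fold change of -0.53 (SE 0.18, adjusted p 0.0671) there. Its water libraries held 53.1, 88.3, 95.3 and 103 CPM and its 2,4-D libraries 54.2 to 66.4 CPM. Only water replicate 1, the library that stood apart from its group, did not lie above all 2,4-D libraries.

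The other called rows were transporters. AIT1 HW_22659_g, an ABA importer of the nitrate transporter family in *Arabidopsis*, was higher after dicamba at 1 HAT (log2 1.99, SE 0.44, adjusted p 0.0401) and lower at 6 HAT after 2,4-D (-1.80, SE 0.23, adjusted p 0.000208) and dicamba (-1.77, SE 0.27, adjusted p 0.00153). Rows hitting ABCG40, an ABC transporter that imports ABA in *Arabidopsis*, went both ways at 6 HAT. HW_51910_g was higher after 2,4-D (2.01), dicamba (2.32) and halauxifen-methyl (4.86), and lower after dicamba at 1 HAT (-2.31). HW_8514_g was lower after all 3 at 6 HAT (-2.22, -1.998 and -1.82), as was HW_43711_g (-2.09, -2.33 and -2.43), and HW_23255_g was lower after 2,4-D (-2.43). The calls at 1 HAT after dicamba were lost without any 1 of 6 libraries for HW_22659_g and of 7 for HW_51910_g, and that of HW_43711_g after dicamba at 6 HAT without any 1 of 6. With the replicate number as a block, 4 of these calls were lost, those of HW_22659_g after dicamba at 1 HAT (adjusted p 0.131), HW_23255_g after 2,4-D (0.058) and HW_43711_g after dicamba (0.0596) and halauxifen-methyl (0.0587).

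**Figure D4:**
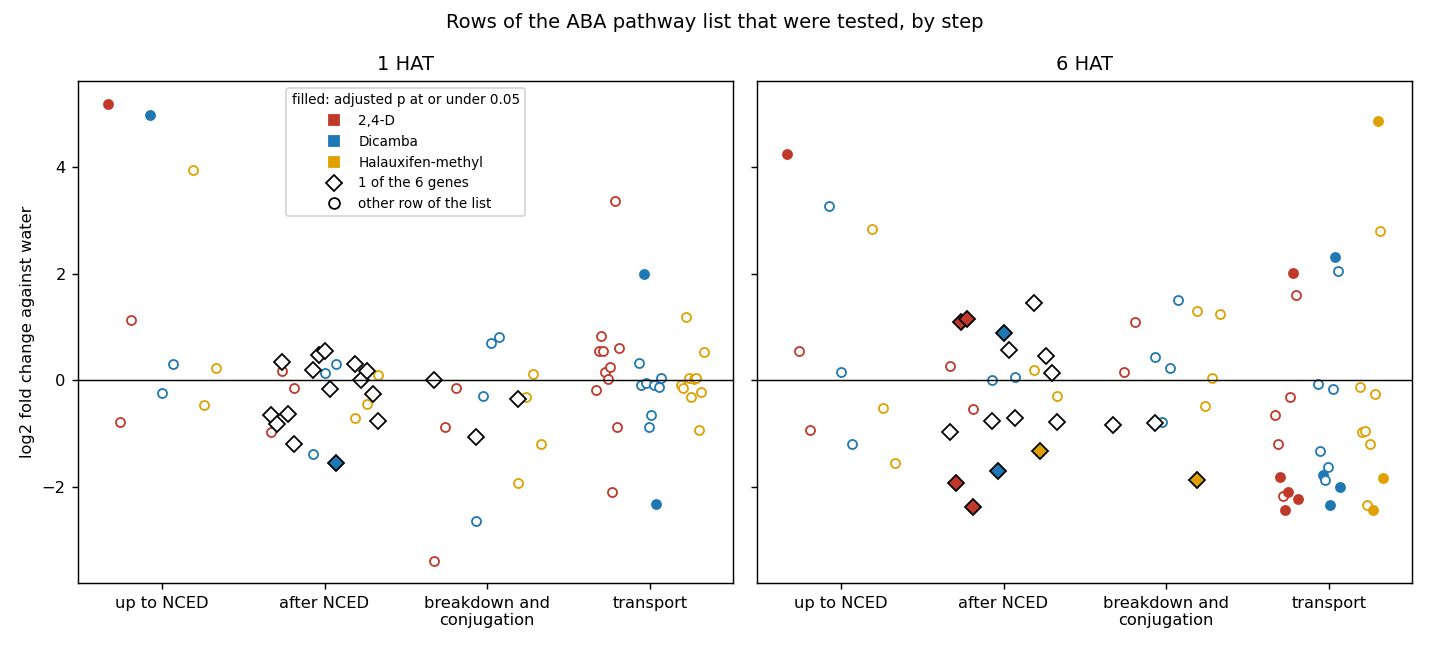
Log2 fold change against water of the tested rows of the ABA pathway list, by step, at 1 and 6 HAT; within a step 2,4-D, dicamba and halauxifen-methyl stand from left to right, diamonds are the 6 genes, circles other rows, and filled symbols have an adjusted p of 0.05 or less. At 1 HAT the filled symbols up to NCED are those of HW_34273_g, at 5.18 and 4.98.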

How the data were processed

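Leaf RNA of 32 plants was sequenced. The authors trimmed the reads, aligned them with STAR 2.5.2b to a draft horseweed genome and used HTSeq 0.6.1 for counts of each predicted gene. The deposited values are raw counts without normalization for 54498 genes, and 25585 of these were at 0 in every library. The counting mode, the strand setting and the treatment of reads that fit several genes are not given in the sources used here. The models list no untranslated regions, so lengths are coding lengths. Positions are those of the deposited annotation on the contigs of that draft, and its gene names are best hits. The deposited table also gives a protein length per gene, used as the authors' value of residues. All 32 count columns were matched to samples by name.

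Each comparison was fitted on its own 8 libraries (16 for a herbicide by time interaction) with TMM scaling, filterByExpr at a minimum count of 10 and edgeR's quasi-likelihood test, which tested 14127 to 15860 genes. The main test is not the one the authors used, who combined DESeq2, edgeR and Cufflinks. Benjamini-Hochberg adjustment ran over all tested genes with a threshold of 0.05. Standard errors and 95% intervals come from the fitted change and its F statistic. P values measure the spread between the plants of a group. Exact permutation tests on CPM used the 70 splits of 4 against 4. Log2 CPM for correlations carried a prior count of 2. Floors are 3 counts and cover counting error only. Libraries of a group had an r of log2 CPM of 0.93 to 0.98 across genes (the lowest with water replicate 1 of 6 HAT), and no pair was within sampling noise (chi-square per gene at least 16.2).

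The 6 genes and all lists were chosen with earlier results of these data known. All 6 are named. Other rows of the pathway list are named where they passed the threshold against water in at least 1 comparison. HW_373_g, the aldehyde oxidases, HW_29806_g and the further ABA2 rows were added after their values were seen. The 3 rows with the highest r are named for each gene.

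In simulated counts with 200 genes changed 4-fold, the test recovered 73.5% in a comparison built on 2,4-D against water at 6 HAT, with 4 false calls among 13666 genes, and 56% in the 2,4-D by time interaction, with 6 false calls. The tests were repeated with DESeq2's Wald test, with the exact test of edgeR and with the calls these share, with DESeq2's size factors, without a filter or with every library at 10 counts or more, with 1 fit of all 32 libraries, with a replicate block, without each library in turn, and with CPM of the raw totals for the permutation tests. Software was R 4.3.3, edgeR 4.0.16, limma 3.58.1, DESeq2 1.42.0, pandas 2.3.3 and matplotlib 3.10.9.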

Additional observations from a re-analysis of the deposited data

Results flagged for a closer look

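In 2 of the 48 sets of 4 libraries that the 6 genes and 8 groups give, 1 library stood apart by Dixon's criterion, which chance meets in about 1 of 20. HW_26707_g was at 6.07 CPM in water replicate 1 of 1 HAT, against 14.6 to 15.7 in the other 3. HW_29043_g was at 8.22 CPM in halauxifen-methyl replicate 3 of 1 HAT, against 1.87 to 2.83 in the others.

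For 3 effects the interaction test found a difference between 1 and 6 HAT. The 2,4-D effect on HW_5686_g was 1.79 higher on the log2 scale at 6 HAT, that on HW_7772_g differed by -1.16 and the dicamba effect on HW_26707_g by -2.17.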

How the results depend on the processing

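Of the 9 calls against water, 8 were kept under each of the other settings, and the ninth, HW_29043_g after halauxifen-methyl at 6 HAT, was lost only with all 32 libraries in 1 fit, which leaves 1 call there. Leaving out single libraries could end the 2 calls of HW_26707_g after dicamba and halauxifen-methyl and no other of the 9. At 1 HAT the count after 2,4-D rose from 0 to 1 (HW_7772_g) under the Wald test of DESeq2, the exact test of edgeR, their intersection, no filter and at least 10 counts in every library. Between 2,4-D and dicamba at 6 HAT it rose from 0 to 1 under those first 4 settings and with all 32 libraries in 1 fit, and for dicamba against halauxifen-methyl from 0 to 1 under DESeq2. In the 2,4-D by time interaction 1 call remained of 2 with all 32 libraries in 1 fit. The exact test and the intersection could not be run for interactions. Permutation tests on CPM gave p of 0.05 or less in 12 of 36 cases, and in 14 with raw library totals. The 12 are the cases in which herbicide and water libraries did not overlap. Non-overlap held for 3.28 to 26.4% of all tested genes, depending on the comparison with water. Plants were separate, and deviations of same-numbered libraries correlated from -0.24 to 0.34. For replicate 4 at 1 HAT the values were positive in every pair of groups, from 0.041 to 0.34, in pairs that reuse the same libraries. The range does not show whether the numbers pair the libraries. With the replicate block 2 of 4 genes were called between 2,4-D and halauxifen-methyl at 6 HAT and 1 of 2 in the 2,4-D by time interaction. All 9 calls of the 6 genes against water were kept, while 4 calls of other pathway rows were lost (adjusted p 0.058 to 0.131).

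No value whose sign turned had passed the threshold. HW_29043_g after 2,4-D at 1 HAT went from 0.01 to -0.0017 with DESeq2's size factors, -0.028 with at least 10 counts in every library and -0.50 with the replicate block. HW_26707_g after halauxifen-methyl at 1 HAT went from 0.0075 to -0.013 under DESeq2 and under its size factors, -0.012 in 1 fit and -0.015 with the block. The block also turned HW_23442_g (0.11) and HW_29043_g (0.035) between 2,4-D and dicamba at 6 HAT and HW_7772_g (-0.045) between dicamba and halauxifen-methyl. The halauxifen-methyl by time value of HW_7772_g went from -0.016 to 0.00068 without the filter and 0.022 in 1 fit.

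With 1 library left out, member calls ranged from 1 to 3 for dicamba and 1 to 4 for halauxifen-methyl against water at 6 HAT. They ranged from 0 to 1 between 2,4-D and dicamba, 2 to 4 between 2,4-D and halauxifen-methyl, 1 to 2 for the 2,4-D and 0 to 1 for the dicamba interaction. Log2 values whose sign turned ranged, against water at 1 HAT, from -0.95 to 0.37 (HW_29043_g, 2,4-D), -0.34 to 0.0017 (HW_5686_g, dicamba) and -0.24 to 0.20 (HW_26707_g, halauxifen-methyl), and at 6 HAT from -0.018 to 0.28 (HW_5686_g, halauxifen-methyl). In water over time HW_29530_g ranged from -0.25 to 0.049. Between 2,4-D and halauxifen-methyl at 1 HAT it ranged from -0.041 to 0.28 and HW_29043_g from -0.60 to 1.09. For dicamba against halauxifen-methyl at 1 HAT HW_5686_g ranged from -0.064 to 0.27, HW_23442_g from -0.33 to 0.10 and HW_29043_g from -1.30 to 0.040, and at 6 HAT HW_7772_g from -0.57 to 0.35. Between 2,4-D and dicamba at 6 HAT HW_26707_g ranged from -0.46 to 0.076, HW_23442_g from -0.62 to 0.61 and HW_29043_g from -0.20 to 0.24. Interaction values ranged from -0.68 to 0.028 (HW_23442_g, 2,4-D), -1.19 to 0.15 (HW_29043_g, 2,4-D), -0.14 to 0.87 (HW_29043_g, dicamba) and -0.25 to 0.19 (HW_7772_g, halauxifen-methyl). The cause of these shifts was not tested.

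Counts over all genes moved by more than 1.5 times in every comparison at 1 HAT and between herbicides under at least 1 setting. Under DESeq2 they were 656 in place of 259 after 2,4-D, 860 in place of 343 after dicamba and 81 in place of 25 after halauxifen-methyl at 1 HAT. Between herbicides DESeq2 gave 781 in place of 30, 275 in place of 69 and 174 in place of 51 at 1 HAT, and 262 in place of 75, 1846 in place of 1175 and 375 in place of 72 at 6 HAT. In the dicamba and halauxifen-methyl interactions it gave 1259 in place of 820 and 1402 in place of 871. Between 2,4-D and halauxifen-methyl at 6 HAT the 1175 fell to 587 in 1 fit and 625 with the block, and ranged from 706 to 1762 without 1 library. Without 1 library the counts at 1 HAT ranged from 136 to 352 (2,4-D), 179 to 388 (dicamba) and 1 to 34 (halauxifen-methyl) against water and from 5 to 247 between 2,4-D and dicamba, and the shares of all genes given beside the counts of the 6 genes move with them. At 6 HAT against water no setting and no left-out library moved the count that far, and without water replicate 1 it was 3829 in place of 2817 after 2,4-D.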
